A study of Homo sapiens with 12 samples.

Results

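The genes described here are 38 human genes of the integrated stress response and the unfolded protein response, with the transcription factor ATF4 at their centre. They were taken by name, as the probes that carry one of the 38 symbols on the arrays. The list of symbols was drawn up with earlier results of these data known. All 38 were found, on 48 probes, and all 38 were among the 24857 genes that passed the filter on dim probes. RNA was measured on 12 one-colour arrays, 1 for each of 4 transfections in each of 3 lung adenocarcinoma lines. The lines were A549, PC14 and PC14CDDP, a cisplatin-resistant derivative of PC14. Each received premiR-197 (a precursor that supplies miR-197, called pre-miR-197 here), AllStar-NC (its negative control, NC), LNA-miR-197 (a locked nucleic acid inhibitor of miR-197) or LNA-miR-NC (the inhibitor's control, LNA-NC), all at 25 nM with the lipid reagent DharmaFECT 1. The labels name no untransfected culture and no cisplatin treatment. Each line stood on 1 array per transfection, so the 3 lines served as the replicates of a transfection. Since PC14CDDP derives from PC14, these replicates are not all independent. P-values measure only the spread between these arrays.

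When a cell lacks amino acids or its endoplasmic reticulum (ER) is loaded with unfolded protein, kinases phosphorylate the initiation factor eIF2alpha, general translation slows and ATF4 mRNA is translated instead. ATF4 then switches on genes for amino acid synthesis and uptake, and also stress factors such as DDIT3 (CHOP), ATF3 and TRIB3. In the ER, the sensor IRE1 (gene ERN1) splices XBP1 mRNA and ATF6 is cut and released, and these factors raise chaperones such as HSPA5 (BiP) and the machinery that removes misfolded protein. ATF4 and XBP1 are regulated largely in translation and splicing, which a 3'-end expression array does not read.

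The agent of the study is miR-197, whose 5p and 3p arms lie at chr1:109598901-109598923 and chr1:109598940-109598961 of GRCh38.p14, on the plus strand. The mature arms from RefSeq are shown because every transfection contrast turns on them. The seed, bases 2 to 8, is in capitals.
hsa-miR-197-3p: uUCACCACcuucuccacccagc
hsa-miR-197-5p: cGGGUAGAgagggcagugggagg

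RefSeq promoters of GRCh38.p14 were listed for 35 of the 38 genes (not for NUPR1, PSPH and SHMT2), and the 250 bases before each start site were searched on both strands. The ER stress response element, CCAAT followed after 9 bases of any kind by CCACG, is the classical site of ATF6 with NF-Y, and a second form is ATTGG followed after 1 base by CCACG. The first form was present upstream of XBP1, HSPA5, HSP90B1, CALR, PDIA6 and CRELD2, and the second upstream of HYOU1, SDF2L1 and HERPUD1. They occurred upstream of 0.0916% and 0.0659% of all 27305 genes searched, respectively. A shared core of ATF4 sites, TGATG followed after 1 base by AA, was present upstream of ATF3, CEBPG, ASNS, CHAC1 and HERPUD1, and of 3.89% of all genes. A match is a run of letters and not a measured binding site, and the 3 motifs were picked with the results known. One stretch of 29 bases is shown for each of the 9 genes with either ER stress element, since these genes are followed through the comparison of PC14CDDP with PC14. The fixed letters of the element are in capitals, and each stretch reads 5' to 3' along the strand that carries it.
HSPA5: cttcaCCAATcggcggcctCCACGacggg
HSP90B1: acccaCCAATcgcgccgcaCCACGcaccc
CALR: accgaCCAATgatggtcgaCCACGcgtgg
PDIA6: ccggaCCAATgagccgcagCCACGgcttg
XBP1: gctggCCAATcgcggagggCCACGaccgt
CRELD2: atggcCCAATccgagttcgCCACGagagg
HYOU1: cgcgtactcATTGGaCCACGtcccaggcc
SDF2L1: agggttttgATTGGtCCACGcttccgagg
HERPUD1: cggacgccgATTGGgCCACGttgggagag
These stretches lie at chr9:125241386-125241414 (HSPA5, minus strand), chr12:103930316-103930344 (HSP90B1, minus), chr19:12938379-12938407 (CALR, minus), chr2:10812848-10812876 (PDIA6, minus), chr22:28800598-28800626 (XBP1, minus) and chr22:49918549-49918577 (CRELD2, minus). The second form lies at chr11:119057265-119057293 (HYOU1, plus), chr22:21642105-21642133 (SDF2L1, minus) and chr16:56932016-56932044 (HERPUD1, plus). HSP90B1 and HYOU1 each held a further match, and the one nearer the start site is shown.

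The 75th percentile of the processed signal lay between 614 and 715 on the 12 arrays, 55.8% to 63.1% of probes were well above background, and no probe was saturated. All levels below are log2 signals relative to that percentile, so that 0 is its level, and levels are compared between arrays and never between genes. The probe used for each of the 38 genes was well above background on all 12 arrays. The keratins KRT7, KRT8, KRT18 and KRT19 were well above background in all 3 lines. The epithelial genes CDH1 and EPCAM were so on 4 of 4 arrays of A549, on 2 and 3 of 4 of PC14 and on none of PC14CDDP. NKX2-1, a lung lineage factor, was so on 0 of 4 arrays of A549 and 4 of 4 of both other lines. The other lung lineage genes did not share this pattern, with NAPSA and SFTPC so on all 12 arrays and SFTPB on none. Of 9 leukocyte, endothelial and fibroblast markers, 5 (PTPRC, CD14, VWF, CDH5 and COL1A1) were above background on all 12 arrays, and COL1A2 and DCN on none. In RNA from whole cultures, fewer cells that express a gene and less RNA per cell cannot be told apart. A549 was hybridised on 1 slide and both PC14 lines on another, and each transfection held the same column of its slide in every line, so that array position and transfection cannot be told apart.

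Among the central members DDIT3 varied most, and ATF4 varied more in both PC14 lines than in A549. The probe of ATF4 (chr22:39918577-39918636 in hg19, the build of the arrays) stood at 6.70, 7.01, 6.76 and 6.84 in A549 after NC, pre-miR-197, LNA-NC and LNA-miR-197. In the same order ATF4 stood at 6.90, 7.48, 7.03 and 7.73 in PC14 and at 6.75, 7.24, 6.74 and 7.81 in PC14CDDP. In both PC14 lines LNA-miR-197 gave the highest level of ATF4 and the controls the lowest. DDIT3, a factor that promotes cell death under lasting ER stress, stood at -1.58, -1.27, 0.38 and 0.29 in A549, at -1.96, -1.32, -1.17 and 1.01 in PC14 and at 0.12, 0.49, 0.44 and 2.83 in PC14CDDP. Thus in A549 DDIT3 was high after both LNA oligonucleotides, and in the PC14 lines it was high after LNA-miR-197 alone. HSPA5, the master chaperone of the ER, ranged from 1.37 to 2.22 over the 12 arrays, and XBP1 from 3.58 to 4.21. The SD over the 4 arrays of a line was 1.03 to 1.30 for DDIT3, against 0.13 to 0.51 for ATF4, 0.23 to 0.38 for HSPA5 and 0.12 to 0.24 for XBP1.

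**Figure D1:**
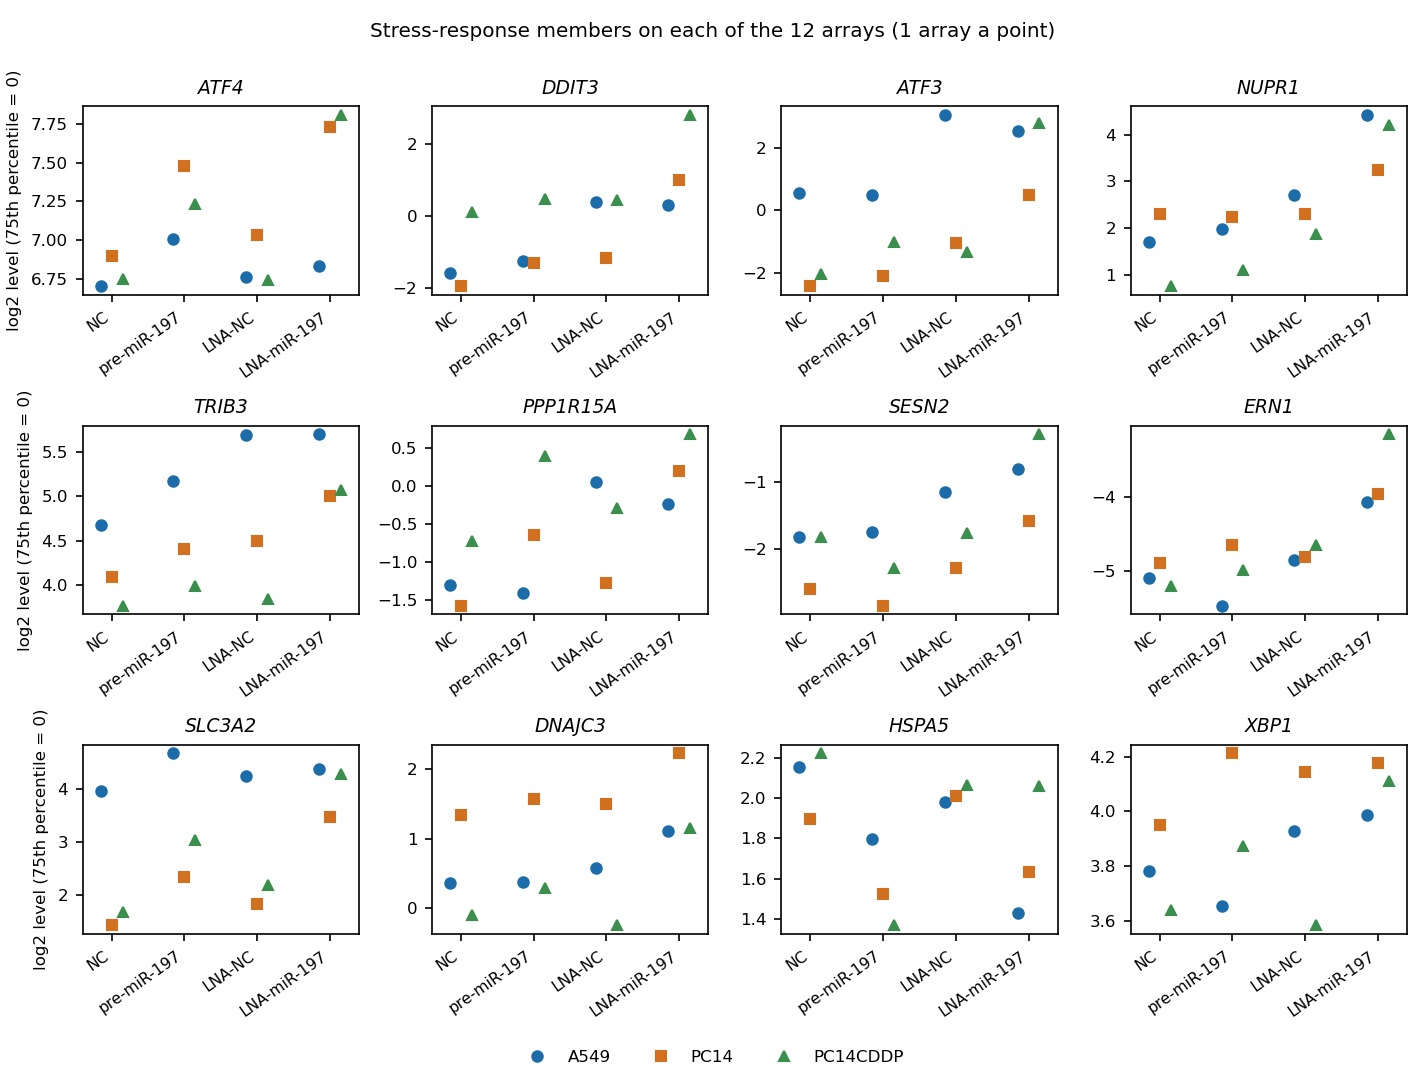
Log2 level (75th percentile of the array = 0) of 12 members on each of the 12 arrays, with the transfection on the x axis and 1 array a point (circles A549, squares PC14, triangles PC14CDDP). The vertical axes differ between genes. In all 3 lines LNA-miR-197 exceeds LNA-NC for DNAJC3, ERN1, NUPR1 and SESN2, and DDIT3 reaches 2.83 in PC14CDDP.

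Inhibition of miR-197 was compared with LNA-NC to ask what follows from its loss. Of the 38 members 4 rose and none fell at an adjusted p under 0.05 (limma, Benjamini-Hochberg over all genes), that is 10.5% higher against 3.75% of all genes higher and 3.90% lower. These were the transcriptional cofactor NUPR1, the ER stress sensor ERN1, the ER co-chaperone DNAJC3 (P58IPK, which restrains the eIF2alpha kinases) and SESN2, a sestrin that restrains mTORC1. The median change of the 38 was 0.06, against -0.02 for all genes. Of the 38 members 13 had an unadjusted p under 0.05, as did 6766 of the 24857 genes.

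NUPR1 stood at 2.72, 2.30 and 1.87 after LNA-NC and at 4.43, 3.25 and 4.20 after LNA-miR-197 in A549, PC14 and PC14CDDP. The groups did not overlap, and NUPR1 rose by 1.66 ± 0.41 (log2, SE, 3 lines), or 3.16-fold, with an adjusted p of 0.0472. ERN1 stood at -4.85, -4.81 and -4.65 after LNA-NC and at -4.06, -3.95 and -3.14 after LNA-miR-197, a rise of 1.06 ± 0.24 (adjusted p = 0.0388, limma). This was the dimmest of the 4 probes, and with normexp background correction its difference was 0.40 (adjusted p = 0.0671, limma). DNAJC3 went from 0.58, 1.5 and -0.24 to 1.12, 2.22 and 1.16, a rise of 0.88 ± 0.16 (adjusted p = 0.0240, limma). SESN2 went from -1.14, -2.27 and -1.75 to -0.80, -1.57 and -0.28, a rise of 0.84 ± 0.20 (adjusted p = 0.0474, limma). For DNAJC3 and SESN2 the levels of the groups overlapped between lines, and within each line the LNA-miR-197 array was the higher. All 4 were also the only members higher by at least 1.2-fold in every line, or 10.5% of members against 6.84% of all genes. SLC6A9, a glycine transporter, was the only member lower by that fold in every line, or 2.63% against 8.13% of all genes. All 4 calls rested on 3 lines and on the spread shared by all 12 arrays. Without A549 the adjusted p of the 4 lay between 0.0880 and 0.172, without PC14 between 0.118 and 0.266 and without PC14CDDP between 0.201 and 0.284 (limma), each time with the same direction, and none was called in a fit of these arrays alone.

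Among the other members ATF3, DDIT3, ATF4, SLC3A2, TRIB3 and PPP1R15A did not pass the test, and their differences were larger in both PC14 lines than in A549. ATF3, an immediate early factor, was higher by 1.52 in PC14 and by 4.10 in PC14CDDP and lower by 0.51 in A549 (1.71 ± 0.69, adjusted p = 0.158, limma). Its 4 probes gave mean differences of 0.17 to 1.71. DDIT3 gave 2.19, 2.39 and -0.08 in PC14, PC14CDDP and A549 (adjusted p = 0.0649, limma), ATF4 gave 0.70, 1.07 and 0.07 (adjusted p = 0.0767, limma) and SLC3A2, the heavy chain of several amino acid transporters, gave 1.63, 2.09 and 0.14 (adjusted p = 0.0735, limma). TRIB3, a pseudokinase that feeds back on ATF4, gave 0.52, 1.23 and 0.01, and PPP1R15A (GADD34), the phosphatase subunit that ends the eIF2alpha signal, gave 1.46, 0.97 and -0.29. CHAC1, an enzyme that degrades glutathione, did not share this order of the lines, with 0.16, 0.61 and 0.38. Lower in every line were DDIT4, a stress-induced inhibitor of mTORC1 (-0.33, -1.28 and -0.20), and the secreted glycoprotein STC2 (-0.31, -0.47 and -0.17). None of these was called. DDIT3 and ATF4 passed the test with normexp background (adjusted p = 0.0243 and 0.0293, limma), with probes above background on all 12 arrays and with a trended prior. SLC3A2 passed in the same settings. In 11 of the 15 alternative settings DDIT3 and ATF4 were not called. With 1 array per line and transfection, whether the lines differ in this response was not tested.

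Of the 6 enzymes of serine, asparagine and folate metabolism none was called. PHGDH, the entry to serine synthesis, differed by -0.65 and -0.94 in PC14 and PC14CDDP and by -0.09 in A549 (adjusted p = 0.116, limma), PSAT1 by -0.50, -0.74 and 0.02, and ASNS (asparagine synthetase) by -0.21, 0.34 and -0.11. PSPH, the last enzyme of serine synthesis, differed by 0.04, 0.19 and -0.38 and SHMT2, a mitochondrial serine enzyme, by 0.14, 0.03 and 0.17. MTHFD2, a mitochondrial folate enzyme, was higher in all 3 lines, by 0.51, 0.22 and 0.68 in A549, PC14 and PC14CDDP (adjusted p = 0.0898, limma). Among the 9 ER chaperones and folding enzymes only DNAJC3 was called. HSPA5 differed by -0.31 ± 0.18 (adjusted p = 0.300, limma) and HSP90B1 by -0.07 ± 0.12. The median of the 9 was -0.05 and that of the 7 transcription factors was 0.61, with none of the 7 lower. DNAJB9, an IRE1 and XBP1 target, and HERPUD1, an ER degradation factor, differed in PC14CDDP by 1.47 and 1.11, in PC14 by 0.26 and 0.23, and in A549 by 0.05 and 0.17.

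**Figure D2:**
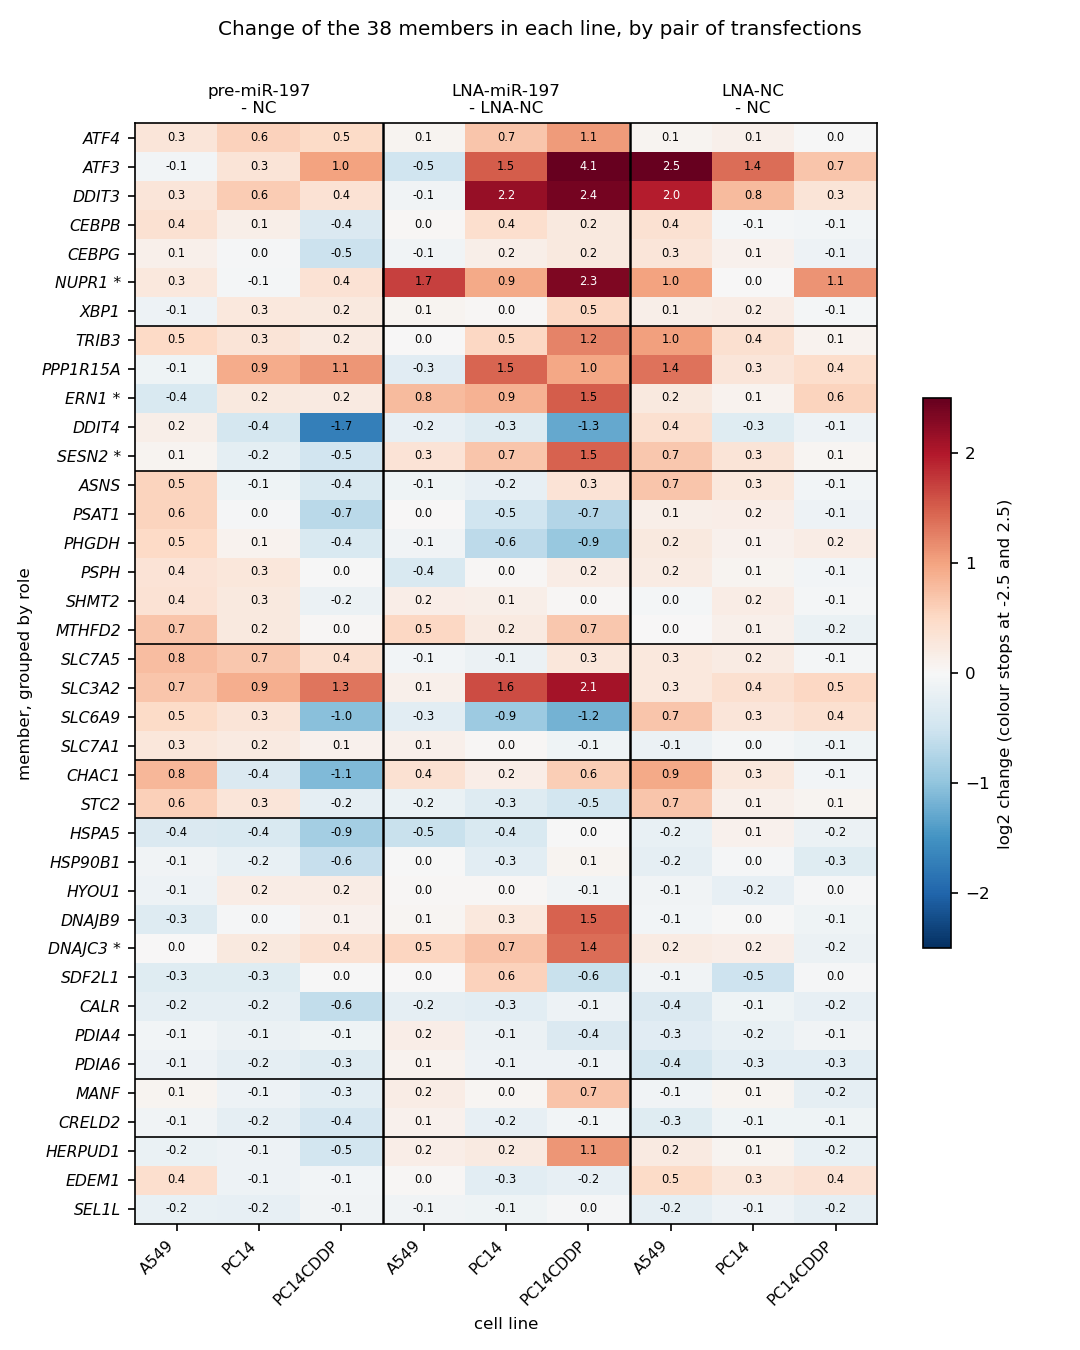
Log2 change of each of the 38 members (rows, grouped by role between horizontal lines) in each line (columns) for 3 pairs of transfections, with the value in each cell and red for higher. An asterisk marks the 4 members called for LNA-miR-197 against LNA-NC, and no member was called in the other pairs. For LNA-miR-197 the darkest cell of PC14 is DDIT3 and that of PC14CDDP is ATF3, and for LNA-NC against NC both genes are darkest in A549.

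Since DDIT3 and ATF3 were already high after LNA-NC in A549, the 2 controls were compared with each other. No member was called in either direction (limma), where 0.201% of all genes were lower and 0.515% higher. Of the 38 members 5 had an unadjusted p under 0.05, as did 3397 of the 24857 genes. In A549, PC14 and PC14CDDP, ATF3 was at 0.56, -2.42 and -2.02 after NC and at 3.05, -1.03 and -1.33 after LNA-NC. It was thus higher after LNA-NC in every line, by 2.49, 1.39 and 0.69, and did not pass the test (1.52 ± 0.69, adjusted p = 0.383, limma). That is the brightest of its 4 probes, whose mean differences ran from -0.15 to 1.75, with a pair of them below 0 in both PC14 lines. DDIT3 was higher by 1.96, 0.79 and 0.32 (adjusted p = 0.332, limma), TRIB3 by 1.02, 0.41 and 0.08 and PPP1R15A by 1.35, 0.30 and 0.43. In these 4 genes the difference was largest in A549. The members at least 1.2-fold higher in all 3 lines were SLC3A2, ATF3, DDIT3, PPP1R15A, SLC6A9 and EDEM1, 6 of 38 or 15.8%, against 4.76% of all genes, and none was lower by that fold, against 4.21%. ATF4 itself differed by 0.06, 0.13 and -0.01, HSPA5 by -0.18, 0.11 and -0.16 and XBP1 by 0.15, 0.19 and -0.06.

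The arrays of LNA-NC enter both of these comparisons, so that LNA-miR-197 was also set against NC, whose log2 difference is the sum of the other two. Against NC 10 members rose and 1 fell (limma), where 7.00% of all genes rose and 7.81% fell. In A549, PC14 and PC14CDDP the log2 difference of DDIT3 was 1.88, 2.98 and 2.71, with a mean of 2.52 ± 0.41 (adjusted p = 0.0129, limma). That of ATF3 was 1.98, 2.91 and 4.80, with a mean of 3.23 ± 0.69 (adjusted p = 0.0226, limma), and its 4 probes gave means of 0.02 to 3.35. TRIB3 rose by 1.09 ± 0.20 and PPP1R15A by 1.41 ± 0.38. ATF4 rose by 0.67 ± 0.18 (adjusted p = 0.0439, limma), of which 0.13 was seen in A549. NUPR1, DNAJC3, SESN2, ERN1 and SLC3A2 were the remaining members that rose, and PDIA6, an ER disulfide isomerase, fell by 0.37 on the log2 scale. Among the 10 the smallest difference in any line was 0.13, for ATF4 in A549, and the next was 0.41, for SLC3A2 in A549. This contrast also sets a locked nucleic acid against AllStar-NC, whose chemistry the labels do not give.

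**Figure D3:**
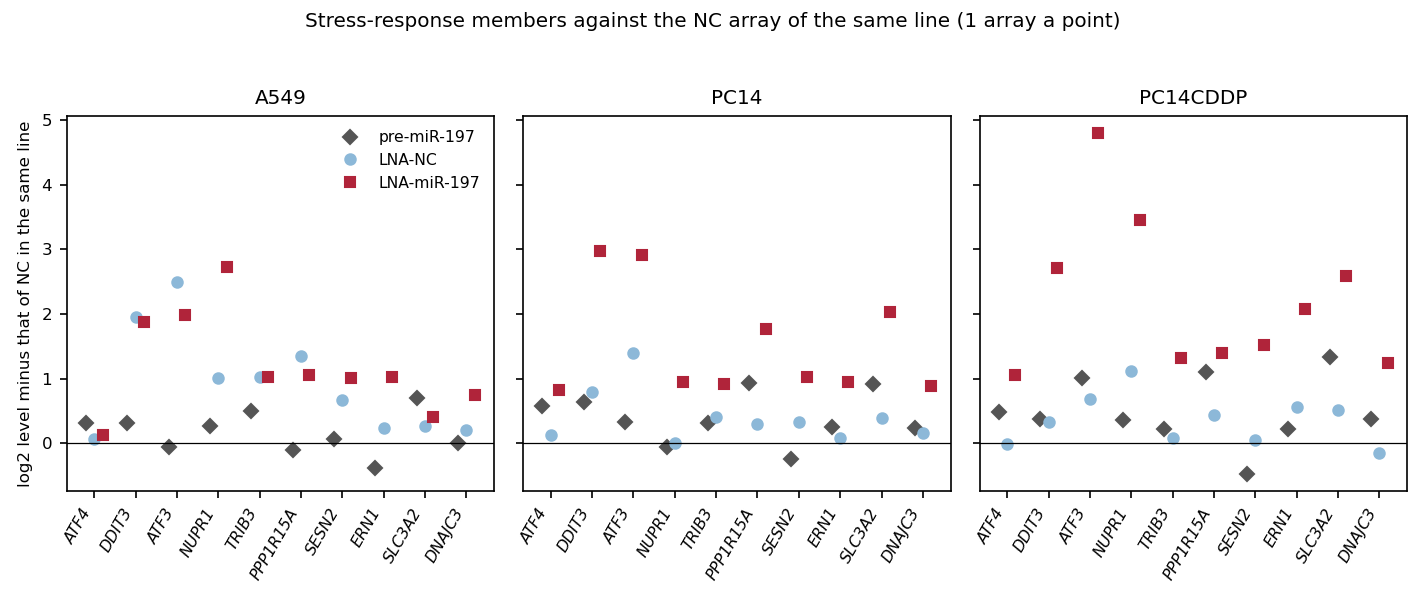
Log2 level of 10 stress-response members minus the level of the NC array of the same line, 1 panel per line, for pre-miR-197 (diamonds), LNA-NC (circles) and LNA-miR-197 (squares), 1 array a point. In A549 the circles of DDIT3, ATF3 and PPP1R15A lie above the squares, and in both PC14 lines the squares lie above the circles for all 10 genes.

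Delivery of pre-miR-197 was compared with NC to ask what a surplus of the miRNA changes. No member was called in either direction (limma), where 0.133% of all genes were lower and 0.0845% higher. An unadjusted p under 0.05 was found for 7 of the 38 members and for 4097 of the 24857 genes. The median of the members was 0.04 and that of all genes 0.03. Both amino acid transporter chains of the LAT1 complex were higher in every line. SLC3A2 stood at 3.97, 1.43 and 1.69 after NC and at 4.67, 2.35 and 3.03 after pre-miR-197 in A549, PC14 and PC14CDDP, a difference of 0.99 ± 0.37 (adjusted p = 0.250, limma). SLC7A5 stood at 5.17, 1.60 and 0.92 after NC and at 5.94, 2.29 and 1.31 after pre-miR-197, a difference of 0.61 ± 0.11 (adjusted p = 0.0796, limma). Within each line both chains were higher after pre-miR-197. ATF4 was higher by 0.31, 0.58 and 0.49 (adjusted p = 0.265, limma) and DDIT3 by 0.31, 0.64 and 0.37 (adjusted p = 0.651, limma). These 4 were the members at least 1.2-fold higher in every line, 10.5% against 4.07% of all genes. HSPA5 was the 1 member at least 1.2-fold lower in every line, by 0.36, 0.38 and 0.85 (adjusted p = 0.208, limma), or 2.63% against 4.71%. Of the 9 ER chaperones and folding enzymes 7 had a mean below 0, with a median of -0.21, and none was called. The comparison of LNA-NC with NC uses the same NC arrays. There 8 of these 9 had a mean below 0, with a median of -0.19 and none called. SLC3A2 and DDIT3 were at least 1.2-fold higher in every line in that comparison too. Whether these differences follow from miR-197 was not tested. XBP1 differed by -0.13, 0.26 and 0.24.

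DDIT4 (REDD1), a stress-induced inhibitor of mTORC1, was lower after pre-miR-197 in PC14CDDP by 1.72 and in PC14 by 0.43 and higher in A549 by 0.15 (adjusted p = 0.386, limma). CHAC1, an enzyme that degrades glutathione, gave 0.83, -0.35 and -1.10 in A549, PC14 and PC14CDDP. PSAT1, ASNS, PHGDH and SLC6A9 were likewise higher in A549, by 0.48 to 0.55, and lower in PC14CDDP, by 0.37 to 1.04. The response to pre-miR-197 minus the response to LNA-miR-197 was tested as well. It was called for none of the 38 members and for 27 of all genes, and the smallest adjusted p of a member was 0.129, for SLC7A5 (limma). An unadjusted p under 0.05 was found for 6 members, and the matching count over all genes was not made.

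PC14CDDP was compared with its parent PC14 over the 4 transfections. The 4 arrays of a line come from that line alone and do not stand for other lines. In PC14CDDP 17 members were lower and 4 higher (limma), that is 44.7% and 10.5% of the 38, against 23.6% and 24.7% of all genes. The median of the members was -0.27 and that of all genes 0.03. By transfection the median of the members was -0.28 under NC, -0.40 under pre-miR-197, -0.35 under LNA-NC and 0.08 under LNA-miR-197. The ER arm accounted for most of the lower members. Of the 9 chaperones and folding enzymes 7 were lower and none higher, as were both secreted ER factors, MANF and CRELD2, and the ER degradation genes HERPUD1 and SEL1L. HSPA5 was not among them, with a difference of 0.16 ± 0.15 (adjusted p = 0.420, limma). The comparison with A549 uses the same PC14 arrays.

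HYOU1, an ER chaperone of the Hsp110 type, stood at -0.72, -0.55, -0.92 and -0.89 in PC14 (NC, pre-miR-197, LNA-NC, LNA-miR-197) and at -1.83, -1.65, -1.85 and -1.94 in PC14CDDP, lower by 1.05 ± 0.09. CRELD2, a secreted factor made under ER stress, stood at 4.21, 3.99, 4.11 and 3.91 in PC14 and at 3.01, 2.59, 2.90 and 2.84 in PC14CDDP, lower by 1.22 ± 0.10. In neither gene did the lines overlap, and adjusted p was 5.17e-05 and 3.17e-05 (limma). DNAJC3 was lower by 1.38 ± 0.14, SDF2L1, a partner of the BiP co-chaperone complex, by 1.25 ± 0.18, and HERPUD1 by 0.96 ± 0.17. The difference of HERPUD1 was 0.34 under LNA-miR-197 and 0.98 to 1.31 under the other transfections. SEL1L, PDIA4, CALR and PDIA6 were lower by 0.35 to 0.61, HSP90B1 by 0.41 and MANF by 0.39. XBP1 was lower by 0.32 ± 0.11 (adjusted p = 0.0461, limma). XBP1 and MANF lost the call without the pre-miR-197, the NC or the LNA-NC arrays (XBP1 then lower by 0.24 to 0.32, adjusted p = 0.0939 to 0.173, limma), PHGDH without pre-miR-197, PDIA6 without NC and HSP90B1 without LNA-NC. SLC3A2 and NUPR1 were called without LNA-miR-197, and PPP1R15A without LNA-NC. In a fit without the replicate block, here the transfection, XBP1, MANF and PDIA6 were not called, nor were DDIT3 (adjusted p = 0.0799) and SESN2 (adjusted p = 0.169, limma), which are described below.

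Of the 9 genes with an ER stress element upstream, listed above, 8 were lower in PC14CDDP and HSPA5 was not called, with a median of -0.61, where 23.6% of all genes were lower. Of the 26 other members with a promoter sequence 9 were lower and 3 higher, with a median of -0.01. DNAJC3, SEL1L, PDIA4 and MANF were lower too, without these letters in the window. The motifs were picked with these differences known, so the counts describe the genes and test nothing.

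The largest differences lay outside the ER arm. SLC6A9, a glycine transporter, stood at 0.80, 1.12, 1.10 and 0.18 in PC14 and at -2.87, -3.91, -2.48 and -3.67 in PC14CDDP. It was lower there by 4.03 ± 0.28, or 16.3-fold (adjusted p = 1.46e-05, limma). A dimmer SLC6A9 probe, well above background on 8 arrays, gave -2.93. DDIT4 stood at 3.36, 2.93, 3.06 and 2.73 in PC14 and at 0.02, -1.69, -0.11 and -1.39 in PC14CDDP, lower by 3.81 ± 0.30 (adjusted p = 2.83e-05, limma). For both genes every PC14 array lay above every PC14CDDP array. STC2, a secreted glycoprotein, was lower by 1.25 ± 0.16, SLC7A5 by 0.78 ± 0.10 and PHGDH by 0.62 ± 0.17. The higher members were DDIT3, by 1.83 ± 0.36 (adjusted p = 0.00327, limma), SHMT2 by 0.96 ± 0.10, SESN2 by 0.79 ± 0.18 and the bZIP factor CEBPB by 0.59 ± 0.13. DDIT3 was higher in each transfection, by 1.61 to 2.08, while ATF4 was not called (-0.15 ± 0.16, adjusted p = 0.467, limma).

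**Figure D4:**
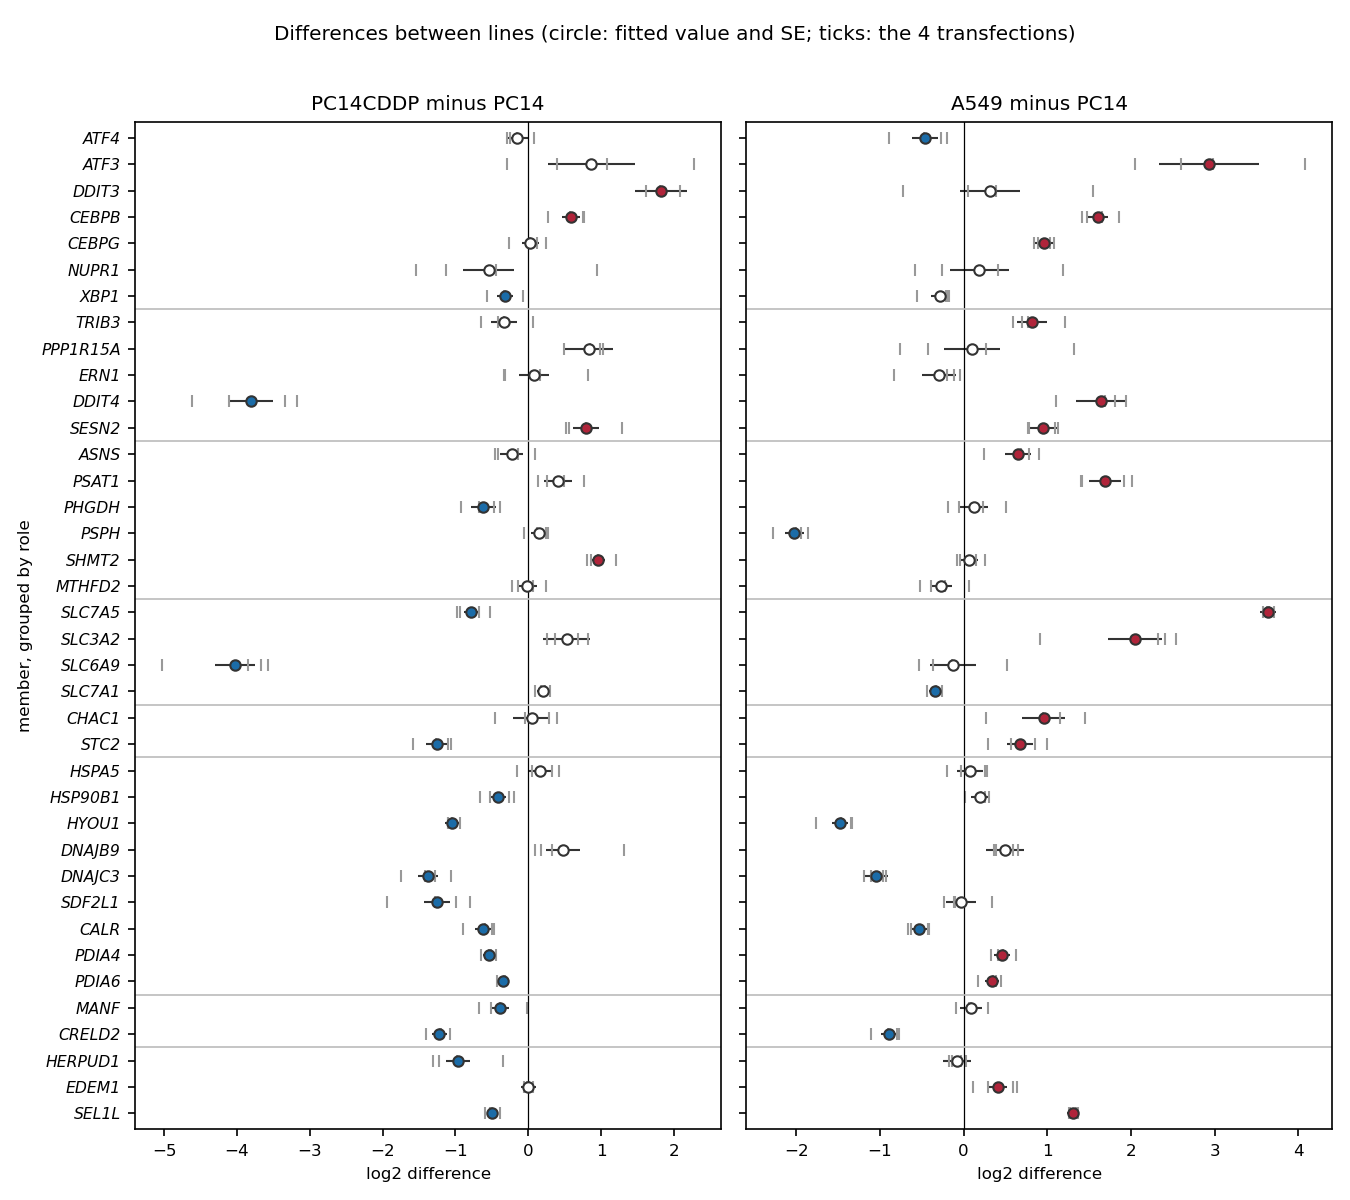
Log2 difference of each of the 38 members between lines, PC14CDDP minus PC14 on the left and A549 minus PC14 on the right, with the fitted value and its SE (circle and bar) and the 4 single transfections (ticks). Filled circles passed an adjusted p of 0.05 (blue lower, red higher) and open circles did not. On the left the ER genes from HSP90B1 to SEL1L lie mostly below 0 and SLC6A9 and DDIT4 lie near -4.

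A549 was compared with PC14 in the same way. Of the members 16 were higher and 7 lower in A549 (limma), 42.1% and 18.4%, against 35.9% and 32.3% of all genes, with a median of 0.19 against 0.08. The 2 lines were on different slides, so that line and slide cannot be told apart here. The largest difference was in SLC7A5, the catalytic chain of LAT1, at 5.17, 5.94, 5.43 and 5.37 in A549 and 1.60, 2.29, 1.81 and 1.66 in PC14, higher by 3.64 ± 0.10 or 12.4-fold (adjusted p = 2.8e-08, limma). Its partner SLC3A2 stood at 3.97, 4.67, 4.24 and 4.37 in A549 and at 1.43, 2.35, 1.83 and 3.46 in PC14, higher by 2.04 ± 0.32. The lines did not overlap for either chain, and the SLC3A2 difference was smallest, 0.91, under LNA-miR-197. ATF3 was higher by 2.93 ± 0.60 (adjusted p = 0.00251, limma), and its 4 probes gave means of 0.39 to 2.93. PSAT1 was higher by 1.68 ± 0.19, DDIT4 by 1.64 ± 0.30, CEBPB by 1.60 ± 0.13 and SEL1L, a core part of the ER degradation complex, by 1.31 ± 0.07. The 3 probes of SEL1L gave means of 0.50 to 1.95. PSPH was lower by 2.02 ± 0.11, HYOU1 by 1.48 ± 0.09 and DNAJC3 by 1.05 ± 0.14. PSPH has a near copy in the genome, and its probe may read both.

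ATF4 was lower in A549 by 0.46 ± 0.16 (adjusted p = 0.0301, limma). This call was lost without the pre-miR-197, the NC or the LNA-NC arrays (lower by 0.45 to 0.54, adjusted p = 0.0508 to 0.103, limma). Without the replicate block ATF4 (adjusted p = 0.135, limma), PDIA6 and SESN2 lost the call. DDIT3 (0.32 ± 0.36), HSPA5 (0.07 ± 0.15) and XBP1 (-0.28 ± 0.11, adjusted p = 0.0529, limma) were not called. The difference of DDIT3 was -0.72 under LNA-miR-197 and 1.55 under LNA-NC, and its mean turned to -0.094 without the LNA-NC arrays. The chaperones of A549 lay on both sides of PC14, with HYOU1, DNAJC3 and CALR lower and PDIA4 and PDIA6 higher. CHAC1 (0.96 ± 0.26) and EDEM1 (0.41 ± 0.11) were higher, calls that CHAC1 lost without LNA-miR-197 or LNA-NC and EDEM1 without LNA-miR-197.

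A further 86 genes of these pathways were listed, of which 83 were tested. After pre-miR-197 and between the controls none was called (limma, median 0.03 and -0.01). After LNA-miR-197 5 were higher and 2 lower, 6.02% and 2.41%, against 3.75% and 3.90% of all genes. The higher ones were DNAJB11, an ER co-chaperone (0.70 ± 0.15), SELENOS (0.62 ± 0.10) and HERPUD2 (0.50 ± 0.11) of ER degradation, ERO1A, the ER oxidase (0.50 ± 0.10), and the seryl-tRNA synthetase SARS1 (0.48 ± 0.11). The lower ones were MTHFD1L (-0.65 ± 0.13), a mitochondrial folate enzyme, and the isoleucyl-tRNA synthetase IARS1 (-0.40 ± 0.08). None of the 12 tested genes for the eIF2alpha kinases, eIF2 and eIF2B and none of the 7 of the ATF6 branch was called.

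In PC14CDDP 33 of the 83 were lower and 22 higher, against 23.6% and 24.7% of all genes. Of 23 other genes linked to ATF4 and stress 14 were lower and 3 higher. GDF15, a stress cytokine, was lower by 2.93 ± 0.41, CBS, an enzyme of cysteine synthesis, by 2.21 ± 0.24 and VEGFA by 1.92 ± 0.20. Of 18 other ER folding and export genes 9 were lower, among them ERO1B (-0.99 ± 0.17), SPCS2 (-0.89 ± 0.08) and the chaperone CANX (-0.79 ± 0.13), and 4 were higher. Of the 7 genes of the ATF6 branch 3 were lower and 2 higher, and among the lower were both proteases that release ATF6, MBTPS1 by 0.82 ± 0.08 and MBTPS2 by 0.72 ± 0.07. Among called genes alone, the other lists held more higher than lower ones. The counts were 5 against 3 of 12 aminoacyl-tRNA synthetases and 4 against 2 of 11 ER degradation genes. For the eIF2alpha kinases, eIF2 and eIF2B they were 4 against 2 of 12 genes. Over all tested genes the medians of these lists were -0.02, 0.03 and -0.18, in that order. In A549 GDF15 was higher than in PC14 by 5.87 ± 0.41, JDP2 by 3.51 ± 0.17 and VLDLR by 2.92 ± 0.18, and 7 of 12 aminoacyl-tRNA synthetases were lower and 2 higher, against 32.3% and 35.9% of all genes, SARS1 being lower by 1.75 ± 0.10.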

How the data were processed

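Per the labels and the file headers, 100 ng of total RNA was labelled with Cy3 and hybridised to Agilent G3 Human GE v2 arrays. The authors deposited scanner files with linear spot intensities from Agilent Feature Extraction 10.7.3.1, background-subtracted within each array and not normalized between arrays. The deposited value table held the same 755712 intensities (equal within a relative 1e-06). Array precision is limited by the number of arrays. Here log2 intensities were set to each array's 75th percentile over non-control spots, and spots of a probe were averaged. Probes well above background on at least 3 of 12 arrays were kept, and each gene was represented by its brightest probe. Current names came through RefSeq accessions for 28120 of 50493 probes, and others kept the file's name. A single limma model (version 3.58.1, R 4.3.3) held transfection and cell line for the 12 arrays, with Benjamini-Hochberg adjustment. The line pairs the arrays of a transfection contrast: the correlations of deviations within a line were 0.848 to 0.948. On simulated data for pre-miR-197 against NC, 176 of 200 changed genes of 24857 were recovered (88.0%, log2 change 2) with 17 false calls. No member reached that change in this contrast, where the largest was 0.99, so recovery of changes of their size was not tested.

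Named members were ATF4, DDIT3, HSPA5 and XBP1, the called members (the 10 largest where more), and uncalled members moved at least 1.5-fold one way in every line or transfection. Others named, such as SLC7A5 after pre-miR-197 and the stress factors after LNA-miR-197, were picked after their values were seen. Of the listed pathway genes, called ones were named, at most 3 per list. Members and lists were chosen with earlier results of these data known. Alternatives were quantile normalization, normexp background (offset 50), the deposited table, other probe filters, the mean of probes, other models, leaving out arrays, and NC as the control of LNA-miR-197.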

Additional observations from a re-analysis of the deposited data

Results flagged for a closer look

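In 7 of the 114 sets of 4 arrays (each member in each line) 1 array lay far from the other 3, as judged by the gap to its nearest neighbour divided by the range, against Dixon's critical value. Chance alone flags about 1 set in 20, and the arrays of a line carry different transfections.

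Of the 7, 6 stood out through LNA-miR-197. DDIT3 in PC14CDDP was highest there (2.83, next 0.49, ratio 0.864). DNAJB9 was highest there in PC14 (1.45, next 1.21, ratio 0.872) and in PC14CDDP (2.76, next 1.51, ratio 0.851), and NUPR1 in PC14 (3.25, next 2.30, ratio 0.935). PHGDH in PC14 was lowest there (1.15, next 1.70, ratio 0.849), as was SDF2L1 in PC14CDDP (4.09, next 4.66, ratio 0.945). The remaining one was CEBPB in A549, lowest after NC (4.61, next 4.98, ratio 0.888).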

How the results depend on the processing

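The counts of called members after LNA-miR-197 depended most on the processing. Against 4, there were 3 with quantile normalization, where NUPR1 lost the call, and 7 with normexp background, where ERN1 lost it. There were 7 with probes above background on all 12 arrays, 8 with a trended robust prior and 11 with NC as the control. There were 0 without a filter on dim probes, with only the arrays of the comparison, with slide as the block, with the methods' t-test and without the replicate block that pairs arrays by line, where adjusted p was 1 for all 4. Leaving out each line in turn gave 0 to 0. After pre-miR-197 there was 1 (SLC7A5) against 0 with normexp, with the filter on all 12 arrays and with the trended prior. Counts between the controls (0), in PC14CDDP (16 to 23, main 21) and in A549 (20 to 25, main 23) stayed within 1.5 times, also without the replicate block (0, 16 and 20). Of 68 results for called members, ATF4, DDIT3, HSPA5 and XBP1 in each comparison, and a few others, 1 changed direction: DDIT3 in A549, not called, where leaving out a transfection gave -0.094 (without LNA-NC) to 0.66 (without LNA-miR-197). With the methods' t-test HERPUD1, SESN2, HSP90B1, MANF and XBP1 lost the call in PC14CDDP and ATF4, CHAC1 and EDEM1 in A549. XBP1 lost it in PC14CDDP without a filter on dim probes, XBP1 and MANF when only PC14 and PC14CDDP were fitted, and EDEM1 in A549 with quantile normalization. The differences between lines rest on cultures of 1 line each, and the transfection comparisons on 3 arrays a side.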
